A study of Mus musculus with 8 samples.

Results

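The 7 chemokine receptor genes *Ccr1*, *Ccr2*, *Ccr7*, *Cx3cr1*, *Cxcr3*, *Cxcr4* and *Cxcr6* were followed across 6 classes of immune cells from mouse mammary tumors. They were chosen by name from the 32285 genes of the count tables. The tumors grew in C57BL/6 mice from E0771, a mammary carcinoma line, or from its derivatives E0771-Res1 and E0771-Res2. Each derivative was grown out of an E0771 tumor that came back following combined paclitaxel and PD-1 blockade, so each is a single line and not a set of independent resistant lines. CD45+ cells, the leukocyte fraction, were taken from tumors excised on day 18, tagged by mouse, pooled, and sequenced as single cells with unique molecular identifiers (UMIs), which count each captured RNA molecule 1 time. The labels give 2 E0771 mice (replicates 1 and 3), 3 E0771-Res1 mice and 3 E0771-Res2 mice. None of these groups is labelled as treated, and all 8 mice carried a tumor, so no tumor-free tissue is compared.

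Chemokine receptors are G protein-coupled receptors of leukocytes. A chemokine ligand bound on the outside couples the receptor to Gi proteins, the cell polarizes and moves up the ligand gradient, and arrestins and RGS proteins then turn the signal down. In tumors the family is best known for setting which leukocytes enter: the Ccl2 receptor Ccr2 brings in Ly6C-high monocytes, Cxcr3 and Cxcr6 mark T cells that reach and stay in inflamed tissue, and Ccr7 takes mature dendritic cells out to the lymph node.

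Of 11430 deposited cells, 10605 passed limits of 500 to 6000 detected genes and under 10% mitochondrial UMIs. The 8 mice gave 5036667 to 18894504 UMIs and 604 to 2020 kept cells each. The median depth was 5589 to 7001 UMIs per cell in the E0771-Res2 mice and 7631 to 8160 in the other mice, and no barcode was shared between mice. Cells were placed in classes by the UMIs of marker genes, none of which is a receptor described here: 173 CD8 T cells, 314 T cells without Cd8 UMIs ("other T"), 149 natural killer (NK) cells, 3331 *Ly6c2*-high monocytes, 2504 *C1qa*-high macrophages and 321 dendritic cells. The other 3813 kept cells were in none of the 6 gates. Their receptor UMIs are in the totals of kept cells but in no class, so the classes do not cover all of a receptor's UMIs. Markers kept out of the gates were highest in the class they name for 4 of 4 NK genes, 4 of 4 monocyte genes, 5 of 5 macrophage genes and 3 of 4 dendritic genes. Of 5 T cell genes 4 were highest in CD8 T cells and 1 in other T cells, and 2 of 2 helper genes in other T cells. Of the 2 CD8 effector genes *Nkg7* was highest in CD8 T cells, whereas *Gzmb* was 1173 CPM (UMIs of a gene scaled to a common class total) there and 4545 CPM in NK cells. Lymphocyte gates also held myeloid RNA. *Csf1r*, a receptor of the monocyte lineage, had 2 or more UMIs in 11.6% of CD8 T cells, 12.8% of NK cells and 22.9% of other T cells. The summed level of 5 macrophage markers was 370 to 1026 CPM in CD8 T cells, 872 to 3066 in other T cells and 415 to 3956 in NK cells, against 15507 to 21118 in macrophages. Receptor UMIs were summed per mouse and class and are given as CPM of that class, with the mean ± SD over mice. Sums of under 10 cells were not used outside the finer gates within dendritic and other T cells. For CD8 T cells this removed E0771-Res1 replicate 2 (9 cells) and E0771-Res2 replicate 1 (7 cells) from levels, tests and shares averaged over mice. The division of a receptor's UMIs over classes, UMIs found together in a cell, gate shares and median depths kept all 8 mice.

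*Cxcr6*, *Ccr1* and *Ccr2* lie within a short stretch of chromosome 9 (build GRCm38, GENCODE M21): *Cxcr6* at chr9:123806475-123811760 on the plus strand, *Ccr1* at chr9:123962124-123968692 on the minus strand and *Ccr2* at chr9:124101950-124113557 on the plus strand. *Cx3cr1* lies farther off on the same chromosome at chr9:119901616-120069879, minus strand. *Ccr7* is at chr11:99144196-99155077, *Cxcr4* at chr1:128588199-128592293 and *Cxcr3* at chrX:101731535-101734269, all on the minus strand. All 7 are annotated as protein coding, and their identifiers match those of the count tables. *Xcr1*, another chemokine receptor gene (chr9:123852315-123862029), lies between *Cxcr6* and *Ccr1*. The 250 bases upstream of the start are shown for *Ccr1* and *Cxcr6*, whose levels over the cell classes differed, as described below. The sequences are from RefSeq on GRCm38.p6, read 5′ to 3′ on the strand of the gene, from chr9:123968693-123968942 (minus strand) and chr9:123806227-123806476 (plus strand). Capitals mark matches, on either strand, to the core motifs searched: GAGGAA of PU.1, a factor of myeloid genes, TGTGGT of RUNX factors and TCACAC of T-box factors.
Ccr1: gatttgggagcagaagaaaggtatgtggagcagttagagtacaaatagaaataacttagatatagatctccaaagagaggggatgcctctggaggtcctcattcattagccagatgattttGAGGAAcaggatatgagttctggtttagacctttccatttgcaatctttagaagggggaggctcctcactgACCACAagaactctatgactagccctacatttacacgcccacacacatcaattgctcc
Cxcr6: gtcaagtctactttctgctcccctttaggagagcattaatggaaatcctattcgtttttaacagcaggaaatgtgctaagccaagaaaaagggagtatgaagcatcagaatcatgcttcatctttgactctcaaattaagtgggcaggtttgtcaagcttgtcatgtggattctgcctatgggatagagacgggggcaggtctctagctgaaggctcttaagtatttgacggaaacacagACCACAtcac

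The *Ccr1* window held 1 PU.1 core and 1 RUNX core, and the *Cxcr6* window held 1 RUNX core and neither of the other motifs. The matches do not overlap. Among 32851 promoter windows of the same length, 23.3% held the PU.1 core, 14.0% the RUNX core and 12.3% the T-box core, so these letters are common. Of the 6 receptors with a RefSeq window, *Cx3cr1* had 1 RUNX core, *Cxcr3* had 1 of each motif, and *Ccr2* and *Cxcr4* had none. *Ccr7* had no entry. A match is a stretch of letters and was not tested as a binding site.

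Each receptor had its own distribution over the classes. *Ccr2* was highest in monocytes and NK cells, *Ccr1* in monocytes, *Ccr7* in dendritic cells, *Cx3cr1* in macrophages and CD8 T cells, *Cxcr3* in other T cells and *Cxcr6* in CD8 T cells, whereas *Cxcr4* was spread over monocytes, macrophages and other T cells. The order of the mean levels, in CPM without further scaling between classes, is given for each receptor below. The tests between classes used levels scaled by edgeR's TMM factors. On that scale some neighbours stand farther apart or in the reverse order. Of 35 pairs of neighbouring classes in these orders, 0 had an adjusted p under 0.05 by the exact sign-flip permutation test over mice; the lowest adjusted p was 0.0547, and 0.0078 is the smallest raw p that 8 mice allow. Pairs with CD8 T cells had 6 mice and a smallest raw p of 0.0313. Adjusted over 35 pairs, this test could barely reach the threshold, so it does not show which neighbours are alike. The edgeR comparisons below, which pool the spread over classes, did call some neighbours. The comparisons of classes described next were fitted across all genes by edgeR's quasi-likelihood test with the mouse as a block, and 19 of 28 receptor comparisons had an adjusted p under 0.05. The share of all 6737 genes past this threshold was 53.6% for macrophages against monocytes, 29% for CD8 T against other T cells, 16% for NK against CD8 T cells and 52.9% for dendritic cells against macrophages, so a difference between classes is common among genes. Of 7 receptors, 2 were called higher and 3 lower in macrophages than in monocytes. In CD8 T against other T cells 2 were higher and 4 lower. In NK against CD8 T cells 1 was higher and 3 lower, as in dendritic cells against macrophages. Some of these calls were for a receptor that did not pass edgeR's filter on low counts within 1 or both of the classes. Such a receptor was tested only through the joint fit of all classes.

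**Figure D1:**
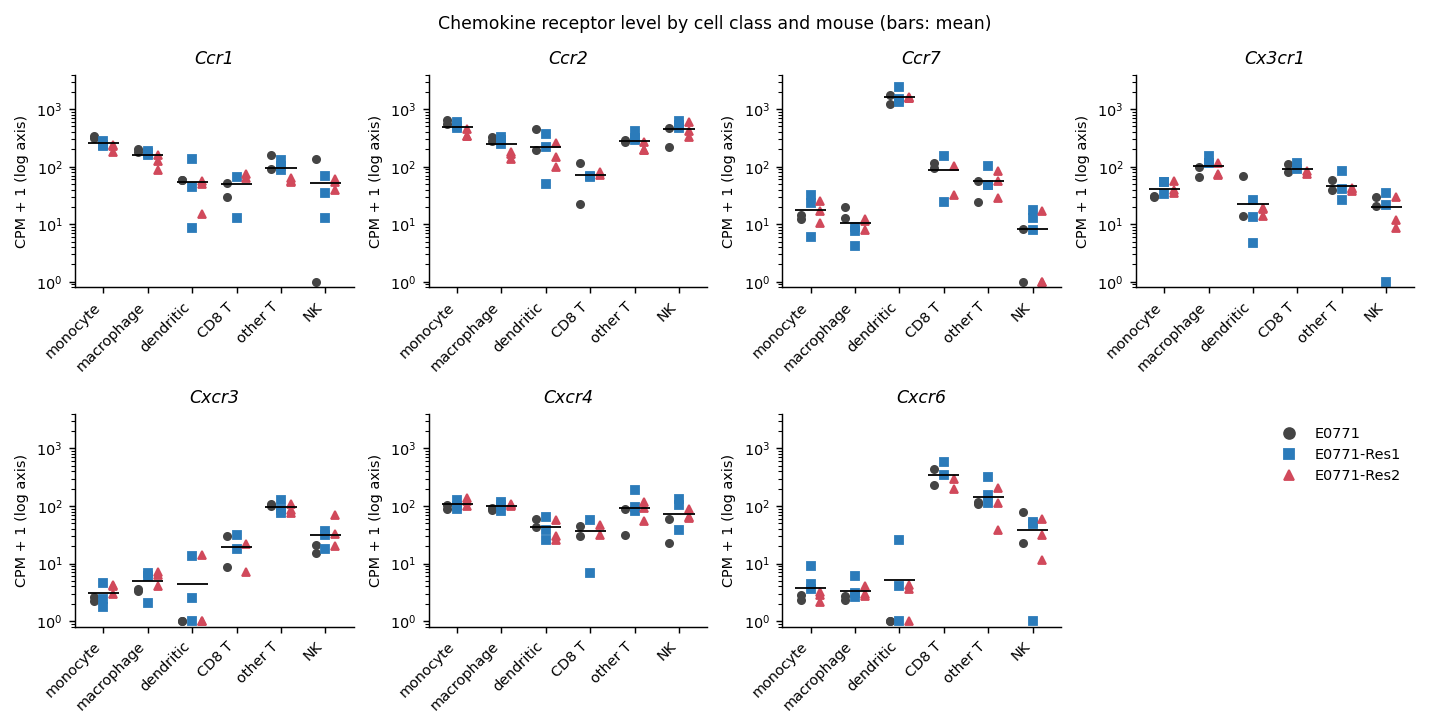
Level of each receptor in each of 6 immune cell classes, in CPM + 1 of the class summed per mouse, on a log axis; each point is a mouse, colored by tumor line, and the bar is the mean over mice. *Ccr7* in dendritic cells (1226 to 2417 CPM) stands above the other classes, *Cxcr6* in CD8 T cells (195 to 588 CPM) overlaps with other T cells (37.6 to 319 CPM), and *Cxcr4* is within a narrow range in monocytes and macrophages.

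*Ccr2*, the receptor for Ccl2, Ccl7 and Ccl12 that monocytes need to leave the bone marrow, had its mean level at 488 ± 110 CPM in monocytes (n = 8 mice), 455 ± 133 in NK cells (n = 8), 279 ± 68.9 in other T cells (n = 8), 245 ± 74.7 in macrophages (n = 8), 223 ± 135 in dendritic cells (n = 8) and 70.0 ± 29.9 in CD8 T cells (n = 6). On the scaled levels monocytes exceeded NK cells in 7 of 8 mice (mean log2 difference 0.64). Other T cells exceeded macrophages in only 3 of 8 (mean log2 difference -0.05). Monocytes held 42.9% of all *Ccr2* UMIs of the kept cells. In macrophages *Ccr2* was lower than in monocytes by 1.12 on the log2 scale (log2 fold change -1.12, SE 0.14, edgeR adjusted p = 3.97e-09). The lymphocytes divided on this receptor. NK cells had 217 to 616 CPM, and *Ccr2* was higher in them than in CD8 T cells (log2 fold change 2.73, SE 0.27, edgeR adjusted p = 7.6e-11). It was lower in CD8 T cells than in other T cells (log2 fold change -1.89, SE 0.27, edgeR adjusted p = 6.5e-07). To compare shares of cells across depths, each cell was thinned at random to 4000 UMIs. At that depth 63.9% of monocytes and 59.0% of NK cells had a *Ccr2* UMI, and 15.8% of CD8 T cells. Without thinning the share was 70.5% in monocytes, and CD8 T cells, at a median of 11092 UMIs per cell, were the deeper class (monocytes 6981). NK cells carried 1056 to 3506 CPM of the 4 monocyte markers and CD8 T cells 1095 to 2828, against 5452 to 9118 in monocytes. Of the mean sum of 2219 CPM in NK cells, 1782 was *Plac8*. The part of monocyte RNA in the NK value of *Ccr2* was not tested. Among lymphocytes with under 2 *Csf1r* UMIs the NK against CD8 T log2 fold change of *Ccr2* was 3.40 (SE 0.34, edgeR adjusted p = 6.51e-11).

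*Ccr1*, which binds Ccl3, Ccl5, Ccl6 and Ccl9 and acts in myeloid cells, was 255.97 ± 52.7 CPM in monocytes (178 to 345) and 160 ± 37.4 in macrophages (n = 8 each). It then ran through 92.5 CPM in other T cells, 52.7 in dendritic cells, 50.7 in NK cells and 48.7 in CD8 T cells. The order of the last 2 was not settled. NK cells exceeded CD8 T cells in 2 of 6 mice (mean log2 difference -0.50), and edgeR called no difference (log2 fold change 0.33, adjusted p = 0.599). Monocytes were above macrophages in 8 of 8 mice, and the edgeR comparison gave a log2 fold change of -0.79 in macrophages (SE 0.11, adjusted p = 6.47e-08). Dendritic cells were lower again than macrophages (log2 fold change -1.67). The CD8 T against other T difference (log2 fold change -0.80, SE 0.29, edgeR adjusted p = 0.0306) became -0.42 and missed the threshold without the lymphocytes that had 2 or more *Csf1r* UMIs. It also missed the threshold without E0771 replicate 1 (-0.73), E0771 replicate 3 (-0.64) or E0771-Res1 replicate 3 (-0.62). The part of myeloid RNA in the lymphocyte values was not tested. *Ccr1* and *Ccr2* UMIs were found together in 31.9% of thinned monocytes, where the product of their shares was 27.2%, and in 15.5% of thinned macrophages, where it was 11.4%. These values are a description with no test.

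*Cx3cr1*, the receptor for the membrane-bound ligand Cx3cl1 and a marker of resident macrophages, had the reverse order in the myeloid cells. Its mean was 100.2 ± 29.3 CPM in macrophages (n = 8) and 91.3 ± 17.2 in CD8 T cells (n = 6), followed by 45.7 in other T cells, 40.7 in monocytes, 21.1 in dendritic cells and 18.9 in NK cells. On the scaled levels other T cells exceeded monocytes in only 2 of 8 mice (mean log2 difference -0.30). Macrophages exceeded monocytes (log2 fold change 1.17, SE 0.11, edgeR adjusted p = 2.2e-12) and held 45.9% of the *Cx3cr1* UMIs of the kept cells. CD8 T cells exceeded other T cells (log2 fold change 1.18, SE 0.25, edgeR adjusted p = 0.00031), and NK cells were below CD8 T cells (log2 fold change -2.43, SE 0.37, edgeR adjusted p = 2.4e-06). In NK cells *Cx3cr1* had 19 UMIs and did not pass edgeR's filter on low counts. It entered the comparison of NK with CD8 T cells through the joint fit of all classes. Among CD8 T cells 25.8% had a *Cx3cr1* UMI after thinning and 45.3% before. In T cells *Cx3cr1* is known from cytotoxic effector cells. A *Cx3cr1* and a *Cxcr6* UMI were found together in 11.8% of thinned CD8 T cells, where the product of the shares was 11.5%.

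*Cxcr6*, the receptor for Cxcl16 on effector and tissue-resident T cells, was 347 ± 146 CPM in CD8 T cells (n = 6) and 145 ± 83.9 in other T cells (n = 8). It fell to 37.4 CPM in NK cells, 4.21 in dendritic cells, 2.81 in monocytes and 2.34 in macrophages. By contrast *Ccr1*, from the same stretch of the chromosome, was highest in monocytes and low in CD8 T cells. CD8 T cells had more *Cxcr6* than other T cells (log2 fold change 1.50, SE 0.18, edgeR adjusted p = 6.17e-09), and NK cells had less than CD8 T cells (log2 fold change -3.34, SE 0.26, edgeR adjusted p = 1.5e-14). In NK cells *Cxcr6* had 38 UMIs and did not pass edgeR's filter on low counts. It entered the comparison of NK with CD8 T cells through the joint fit of all classes, which includes the T cells where it was highest. Of 1344 *Cxcr6* UMIs in the kept cells, 41.1% lay in CD8 T cells and 21.0% in other T cells. After thinning, 47.2% of CD8 T cells had a *Cxcr6* UMI, against 0.570% of monocytes and 0.769% of macrophages, classes not known to use this receptor (median depths of 6981 and 8385 UMIs). The source of those UMIs was not tested.

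*Cxcr3*, the receptor for the interferon-induced ligands Cxcl9 and Cxcl10, was highest in other T cells at 94.2 ± 17.6 CPM (74.0 to 124, n = 8). NK cells had 29.7 CPM and CD8 T cells 18.3, while macrophages, dendritic cells and monocytes had 3.93, 3.38 and 2.13. Other T cells exceeded NK cells in 8 of 8 mice, and the CD8 T cells were lower than other T cells (log2 fold change -2.50, SE 0.33, edgeR adjusted p = 8.5e-08). Within CD8 T cells *Cxcr3* had 23 UMIs in the sums used and did not pass edgeR's filter on low counts. It entered the comparison with other T cells through the joint fit of all classes, which includes those cells, where it was highest. After thinning, 17.4% of other T cells had a *Cxcr3* UMI, against 0.556% of monocytes. The small excess in macrophages over monocytes (log2 fold change 0.79, SE 0.30, edgeR adjusted p = 0.0238) rested on levels of under 4 CPM. It is counted among the calls above. It missed the threshold with DESeq2, with doubled gate thresholds (0.82), and without E0771-Res1 replicate 1 (0.81) or replicate 3 (0.71). *Cxcr3* did not pass edgeR's filter on low counts within monocytes or within macrophages. It entered this comparison through the joint fit of all classes, which includes the other T cells where it was highest.

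Within other T cells, cells with a *Foxp3* UMI, the factor of regulatory T cells, numbered 139 (7 to 35 a mouse) and cells without numbered 175 (8 to 42 a mouse). *Cxcr3* was 125 CPM in the *Foxp3*-positive and 68.6 in the *Foxp3*-negative cells, higher in 6 of 8 mice (log2 difference 0.82, exact sign-flip permutation p = 0.0469, adjusted p = 0.125 over 14 comparisons within gates). *Cxcr6* was 102 CPM in the positive and 182 in the negative cells (log2 difference -0.78, exact sign-flip permutation p = 0.0625, adjusted p = 0.125). Neither difference held after adjustment.

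*Ccr7*, the receptor for Ccl19 and Ccl21 that leads cells to the lymph node, reached 1616 ± 363 CPM in dendritic cells (n = 8). The E0771 mice had 1741 and 1226 CPM, the E0771-Res1 mice 1496, 1309 and 2417, and the E0771-Res2 mice 1598, 1587 and 1553, so the 3 lines overlapped. CD8 T cells had 87.2 ± 50.9 CPM (n = 6), other T cells 55.1, monocytes 16.7, macrophages 9.55 and NK cells 7.38. Dendritic cells exceeded macrophages (log2 fold change 7.69, SE 0.20, edgeR adjusted p = 4.07e-34) and held 60.6% of the *Ccr7* UMIs. After thinning, 62.7% of dendritic cells and 1.56% of NK cells had a *Ccr7* UMI. *Ccr7* was also lower in macrophages than in monocytes (log2 fold change -1.05, SE 0.25, edgeR adjusted p = 0.000381) and lower in NK than in CD8 T cells (log2 fold change -3.54, SE 0.59, edgeR adjusted p = 1.35e-05).

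The dendritic cell gate was split further by 3 gene sets. A cell went to the set with the most UMIs, if that set had at least 3. This gave 206 mature cells (*Fscn1*, *Cacnb3* and *Ccl22*) and 91 cells of *Cd209a*, a gene of monocyte-related and type 2 dendritic cells. The third set, *Clec9a* and *Xcr1*, had at most 5 cells a mouse and is not described. Cells with fewer UMIs in every set were left out. In the finer gates sums of 5 or more cells were used, and a mouse gave 5 to 25 *Cd209a* and 7 to 44 mature cells. *Ccr7* and *Ccr2* changed places between them. In mature cells *Ccr7* was 2840 ± 389 CPM and in *Cd209a* cells 71.8 (log2 difference 6.26, SE 0.80, exact sign-flip permutation p = 0.0078, adjusted p = 0.0365, higher in 8 of 8 mice). *Ccr2* was 22.4 CPM in mature cells and 541 ± 219 in *Cd209a* cells (log2 difference -4.62, SE 0.63, exact sign-flip permutation adjusted p = 0.0365, lower in 8 of 8 mice). *Cx3cr1* was 2.89 CPM in mature cells and 53.3 in *Cd209a* cells (log2 difference -2.83, SE 0.33, exact sign-flip permutation adjusted p = 0.0365). *Ccr1* was 9.23 and 119 CPM, with an adjusted exact permutation p of 0.082. These p-values were adjusted over the 14 receptor comparisons within gates and not over all genes. The share of all genes that differ between mature and *Cd209a* cells was not computed. The calls therefore do not show that the receptors differ more often than other genes. Over the undivided gate *Ccr2* in dendritic cells (48.4 to 450 CPM by mouse) had not differed from macrophages by the edgeR test (log2 fold change -0.11). Only 6.62% of thinned dendritic cells carried UMIs of both *Ccr2* and *Ccr7*, where the product of the shares was 15.2%.

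**Figure D2:**
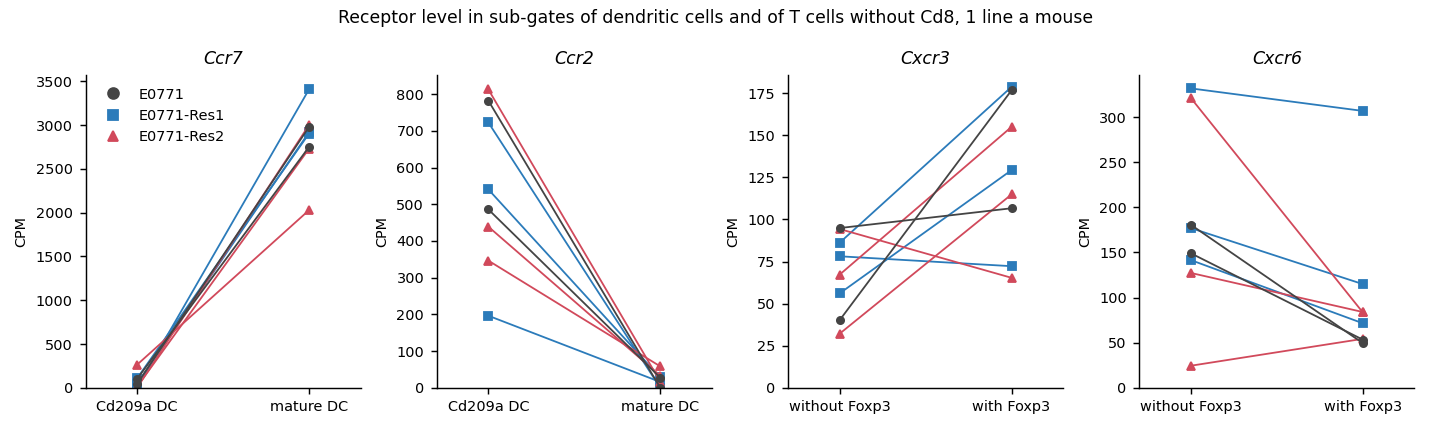
Receptor levels within the dendritic cell and other T cell gates, in CPM, with lines joining the values of the same mouse and colors for the tumor line. *Ccr7* is higher and *Ccr2* lower in mature than in *Cd209a* dendritic cells in 8 of 8 mice, whereas *Cxcr3* is higher in *Foxp3*-positive other T cells in 6 of 8.

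*Cxcr4*, the receptor for Cxcl12 that holds leukocytes and progenitors in the bone marrow, had similar means in monocytes and macrophages. It was 107 ± 18.4 CPM in monocytes and 98.6 ± 11.8 in macrophages (n = 8 each), then 93.0 ± 46.5 in other T cells, 70.5 in NK cells, 41.9 in dendritic cells and 35.3 in CD8 T cells. In the 1479 cells with *C1qa* between the limits of these 2 gates *Cxcr4* was 147 ± 24.3 CPM (110 to 181, n = 8), above the mean of either. Monocytes were above macrophages in 8 of 8 mice by a small amount (mean log2 difference 0.29, SE 0.05, exact sign-flip permutation adjusted p = 0.0547). The edgeR comparison also narrowly missed the threshold (log2 fold change -0.23 in macrophages, adjusted p = 0.0568). *Cxcr4* was lower in dendritic cells than in macrophages (log2 fold change -1.13) and lower in CD8 T than in other T cells (log2 fold change -1.15, SE 0.27, edgeR adjusted p = 0.00091). Within CD8 T cells *Cxcr4* had 56 UMIs and did not pass edgeR's filter on low counts. It entered the comparison of CD8 T with other T cells through the joint fit of all classes.

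The monocyte and macrophage gates differ in their limits on *C1qa*, a gene of C1q, a complement component of tissue macrophages. Another 1479 kept cells had *C1qa* between those limits, with no condition on *Ly6c2*. The gated monocytes and macrophages, without the cells between the gates, were pooled and split into 4 bins of equal size on summed *C1qa*, *C1qb* and *C1qc*, with edges at 2.402, 8.953 and 100.179 UMIs per 10000. From the lowest to the highest bin *Ccr2* averaged 540, 454, 330 and 206 CPM, *Ccr1* 273, 253, 203 and 135, and *Cx3cr1* 48.4, 38.3, 48.3 and 125. In these means over all mice *Ccr2* and *Ccr1* declined in every step, whereas *Cx3cr1* was high in the highest bin only. Within E0771-Res1 the mean of *Ccr1* rose from 248 CPM in the lowest bin to 261 in the next. Macrophages, with *C1qa* of at least 16 per 10000, all lie above the edge of 8.953, so the bins below it hold monocytes only. Comparing the highest with the lowest bin therefore largely repeats the comparison of the 2 classes and is not independent of it. On the log2(CPM + 5) scale the highest bin differed from the lowest by -1.41 for *Ccr2* (SE 0.09), -1.001 for *Ccr1* (SE 0.11), 1.31 for *Cx3cr1* (SE 0.19) and 0.41 for *Cxcr3* (SE 0.11), each in the same direction in 8 of 8 mice. These 4 had an exact sign-flip permutation p of 0.0078, the smallest possible, and an adjusted p of 0.0249 over 10832 genes, as did 40.1% of all genes at this threshold. *Cxcr4* went from 107 to 92.7 CPM (log2 difference -0.19, exact permutation adjusted p = 0.163). *Ccr7* (-0.73, adjusted exact permutation p = 0.0888) and *Cxcr6* (-0.04, adjusted exact permutation p = 0.932) also missed the threshold. The *Cxcr3* difference rested on means of 1.85 CPM in the lowest and 4.08 CPM in the highest bin. With bins on *C1qb* and *C1qc* alone *Cxcr3* no longer passed (0.29, adjusted exact permutation p = 0.224).

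**Figure D3:**
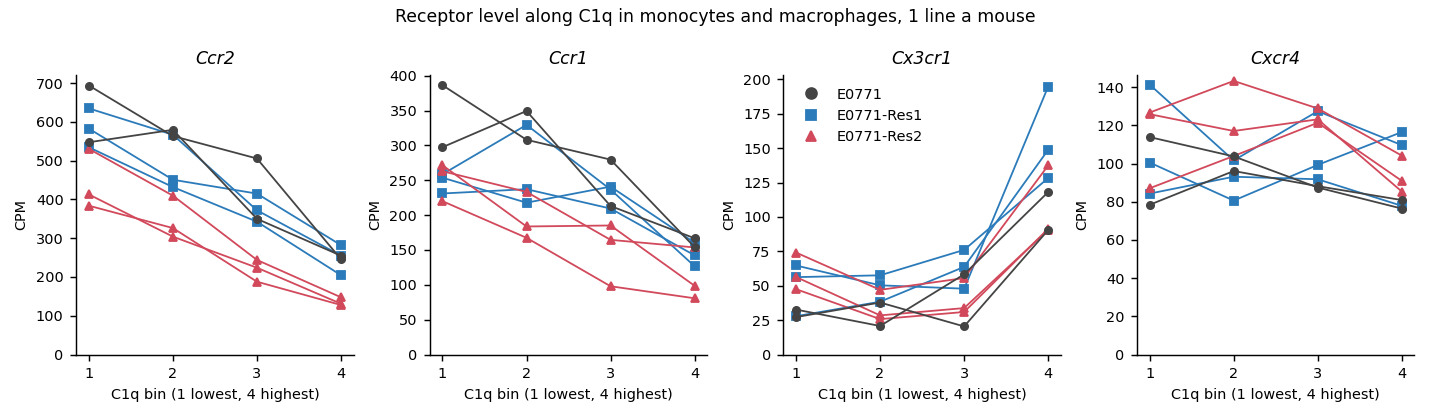
Receptor level in CPM over 4 bins of rising C1q in pooled monocytes and macrophages, for *Ccr2*, *Ccr1*, *Cx3cr1* and *Cxcr4*; each line is a mouse, colored by tumor line. *Ccr2* declines from a mean of 540 to 206 CPM and *Ccr1* from 273 to 135 CPM, and the E0771-Res2 mice are the lowest for *Ccr2* in each bin.

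Whether the receptors differ between immune infiltrates of the resistant and the parental tumors was asked within each class, by edgeR's quasi-likelihood test on sums per mouse, with adjustment over all genes. Both comparisons with E0771 share its 2 mice, and both comparisons with E0771-Res2 share its 3. Of 42 receptor and class combinations, 28 passed the filter on low counts, 5 in CD8 T cells, 7 in other T cells, 2 in NK cells, 5 in monocytes, 5 in macrophages and 4 in dendritic cells. The differences found were in myeloid cells of E0771-Res2 tumors, where *Ccr2* and *Ccr1* were lower. Against E0771, 3 of 28 combinations were called (7 at an unadjusted p under 0.05, 4 by DESeq2), and against E0771-Res1, 2 of 28 (7 unadjusted, 2 by DESeq2). Between E0771-Res1 and E0771, 0 of 28 were called by edgeR (4 at an unadjusted p under 0.05, 0 by DESeq2). Among all genes the called share was 4.18% in monocytes and 2.25% in macrophages for E0771-Res2 against E0771, 2.57% and 3.79% against E0771-Res1, and 0.0108% and 0.156% for E0771-Res1 against E0771.

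*Ccr2* in macrophages was 329 and 279 CPM in the E0771 mice and 248.8, 286 and 332 in the E0771-Res1 mice. The E0771-Res2 mice had 168, 182 and 136 CPM. Every E0771-Res2 mouse was below every other mouse, and the other lines overlapped. The log2 fold change was -0.94 against E0771 (SE 0.14, edgeR adjusted p = 0.0028) and -0.83 against E0771-Res1 (SE 0.13, edgeR adjusted p = 0.00157). The difference from E0771-Res1 was called under each of the 16 alternatives that could change it, at -0.95 to -0.70. The difference from E0771 was called under 15 of 16, at -1.03 to -0.82, and missed the threshold without E0771 replicate 1, which leaves 1 mouse in that line. After thinning, 47.9% of E0771, 42.6% of E0771-Res1 and 30.2% of E0771-Res2 macrophages had a *Ccr2* UMI (47.1 to 48.8%, 38.7 to 46.3% and 26.9 to 32.5% by mouse).

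*Ccr2* in monocytes was 636 and 550 CPM in the E0771 mice, 465, 603 and 519 in the E0771-Res1 mice, and 340, 450 and 343 in the E0771-Res2 mice, again without overlap of E0771-Res2 with the rest. The log2 fold change was -0.64 against E0771 (SE 0.13, edgeR adjusted p = 0.0127) and -0.48 against E0771-Res1 (SE 0.12, edgeR adjusted p = 0.0474). The share of thinned monocytes with a *Ccr2* UMI was 74.9%, 67.8% and 52.7% in E0771, E0771-Res1 and E0771-Res2. The call against E0771 was lost without E0771 replicate 1 (-0.54) or E0771-Res2 replicate 3 (-0.59). The call against E0771-Res1 was less firm. It was lost with doubled gate thresholds (-0.43) and without E0771 replicate 1 or 3 (-0.48 each), E0771-Res1 replicate 2 (-0.37) or 3 (-0.48), or E0771-Res2 replicate 1 (-0.41) or 3 (-0.42).

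*Ccr1* in monocytes was 345 and 311 CPM in E0771 mice, 232, 277 and 240 in the E0771-Res1 mice, and 226, 238 and 178 in the E0771-Res2 mice. Here both derived lines were below E0771, and they overlapped each other. The test was passed by E0771-Res2 against E0771 (log2 fold change -0.60, SE 0.12, edgeR adjusted p = 0.0116), a call lost without E0771 replicate 1 (-0.53), E0771 replicate 3 (-0.67) or E0771-Res2 replicate 3 (-0.50). In macrophages *Ccr1* was 205 and 181 CPM for E0771, 188, 173 and 161 for E0771-Res1, and 125, 160 and 87.7 for E0771-Res2. The difference of E0771-Res2 from E0771 there was -0.68 on the log2 scale (edgeR adjusted p = 0.0633), past the threshold with DESeq2 (-0.67, adjusted p = 0.029). Against E0771-Res1 it was -0.51 (edgeR adjusted p = 0.0833).

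**Figure D4:**
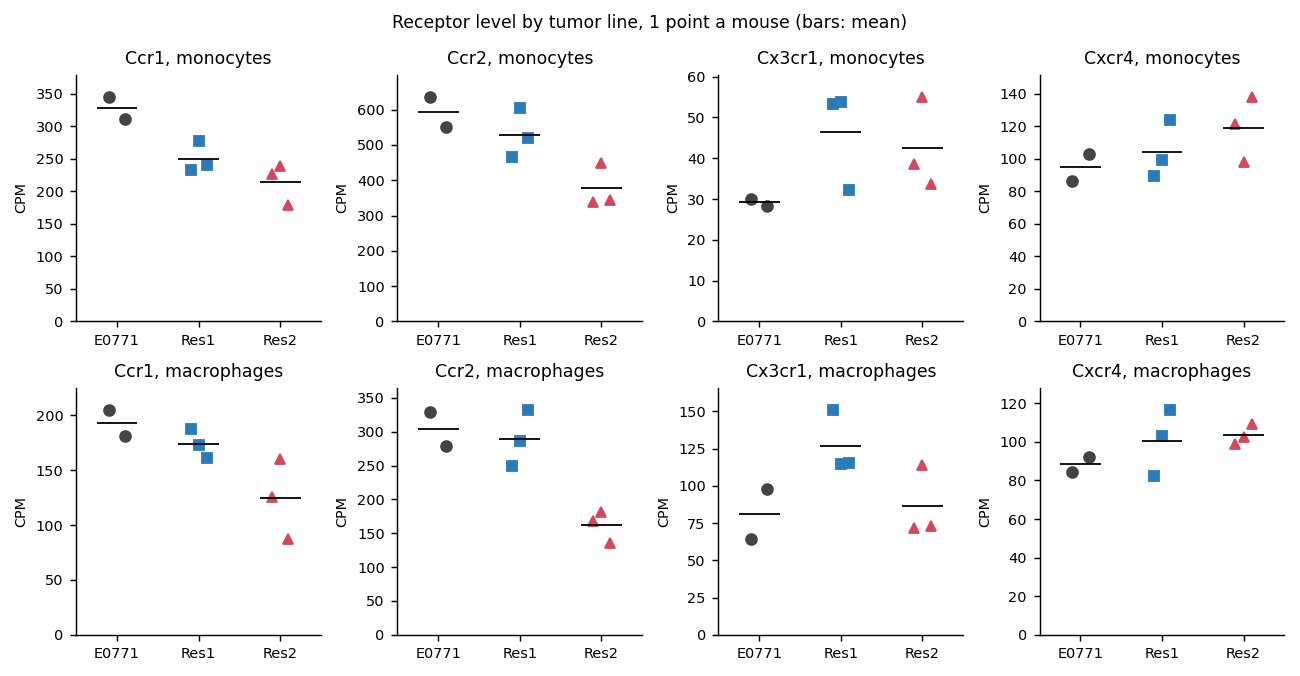
Level of *Ccr2*, *Ccr1*, *Cx3cr1* and *Cxcr4* in monocytes and macrophages of each tumor line, in CPM on axes that start at 0; points are mice and bars are line means. *Ccr2* of the 3 E0771-Res2 mice lies below the other 5 mice in both classes (136 to 182 CPM in macrophages).

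*Cx3cr1* and *Cxcr4* were not called between lines. *Cx3cr1* in macrophages was 64.5 and 97.8 CPM for E0771, 151, 114 and 116 for E0771-Res1 and 71.9, 114 and 72.7 for E0771-Res2. E0771-Res2 against E0771-Res1 gave a log2 fold change of -0.63 that missed the threshold (edgeR adjusted p = 0.0544). It passed with a replicate block (-0.66, edgeR adjusted p = 0.0283), with no filter on low counts (-0.63) and without the highest 5% of cells by UMIs (-0.72). E0771-Res1 against E0771 also passed under the last 2 settings (0.74 and 0.82). In monocytes *Cx3cr1* was 28.4 to 30.1 CPM for E0771, 32.2 to 53.9 for E0771-Res1 and 33.8 to 55.0 for E0771-Res2. Both derived lines were above E0771 there. The log2 fold change against E0771 was 0.66 for E0771-Res1 (SE 0.23, edgeR adjusted p = 0.566) and 0.54 for E0771-Res2 (SE 0.23, edgeR adjusted p = 0.226). *Cxcr4* in monocytes was 86.3 and 103 CPM for E0771, 89.2, 99.1 and 124 for E0771-Res1 and 121, 98.2 and 138 for E0771-Res2, with overlap of all 3 lines.

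The lower *Ccr2* of E0771-Res2 was also seen within each C1q bin. In the bins of rising C1q the E0771-Res2 mice had 384 to 530, 304 to 410, 188 to 244 and 128 to 148 CPM. The E0771-Res1 mice had 534 to 635, 432 to 567, 343 to 415 and 205 to 282, and the E0771 mice 547 to 694, 563 to 579, 350 to 505 and 246 to 255. All 3 E0771-Res2 mice were thus below the other 5 in 4 of 4 bins, which was so for 0.24% of 10832 genes, and for *Ccr1* in 1 of 4 bins. The bins divide the same cells as the class sums above, so this is not independent support for the lower *Ccr2*. A test of whether the line effect differs between macrophages and monocytes called 0 of 7 receptors in each comparison by edgeR, with 1 at an unadjusted p under 0.05 for E0771-Res1 against E0771, 1 for E0771-Res2 against E0771 and 4 for E0771-Res2 against E0771-Res1 (DESeq2 was not run on it). For *Ccr2* this difference was -0.29 (SE 0.15, edgeR adjusted p = 0.633) against E0771 and -0.36 (SE 0.13, edgeR adjusted p = 0.604) against E0771-Res1. The 1 receptor counted in each comparison with E0771 was *Ccr7*. Its difference was -2.01 for E0771-Res1 (SE 0.42, edgeR adjusted p = 0.118) and -0.93 for E0771-Res2 (SE 0.40, edgeR adjusted p = 0.515). Across all genes 0.0103%, 0.361% and 0.144% were called in these 3 tests. Other measures moved with the line. The 5 macrophage markers summed to 15507 to 15862 CPM in E0771 macrophages, 19979 to 20630 in E0771-Res2 and 16032 to 21118 in E0771-Res1, and the 4 monocyte markers in macrophages to 1271 to 1504, 678 to 768 and 531 to 1046. E0771-Res2 cells were also the shallowest. The part of these in the *Ccr2* difference was not tested.

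**Figure D5:**
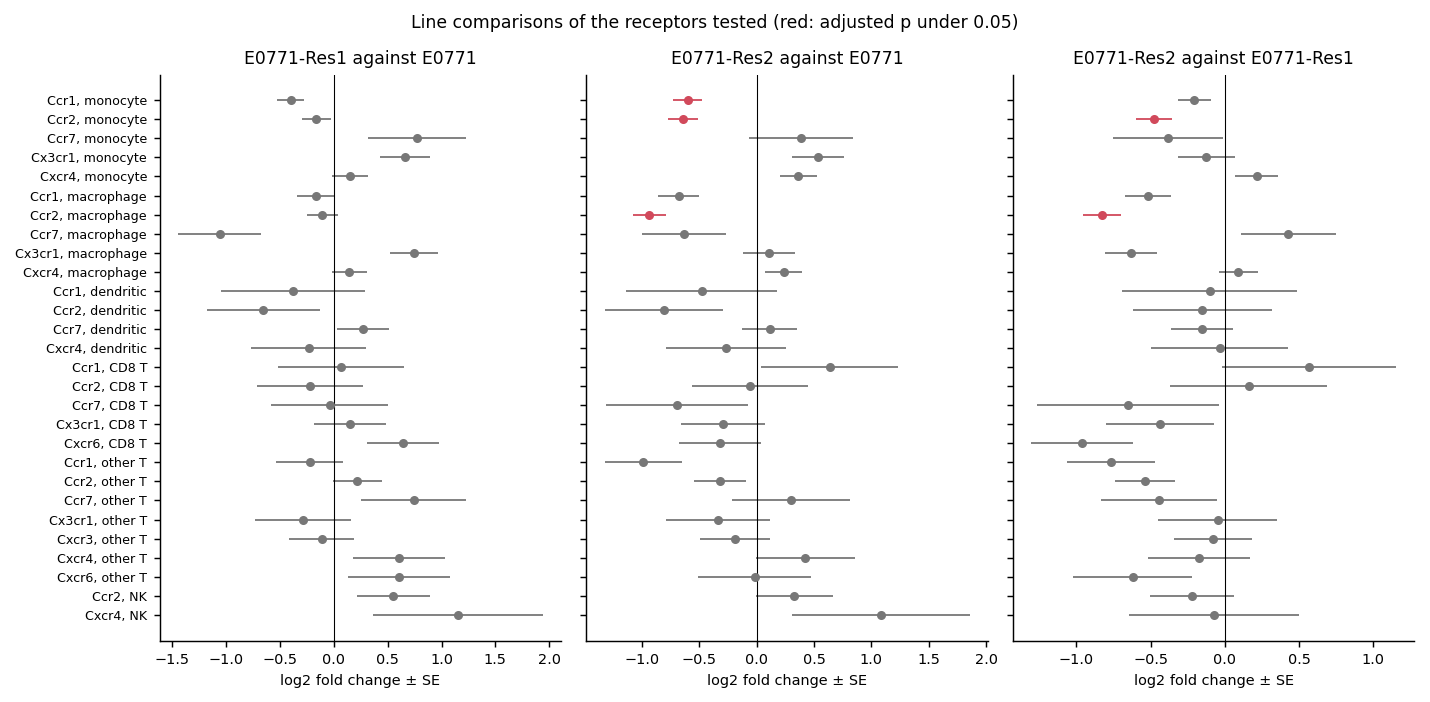
Log2 fold change between tumor lines for each receptor and class that passed the count filter, with bars of 1 SE from edgeR; red points have an adjusted p under 0.05. The red points are *Ccr2* in monocytes and macrophages and *Ccr1* in monocytes, at -0.94 to -0.48, all for E0771-Res2.

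In the lymphocyte and dendritic cell classes 0 of 18 receptor tests were called by edgeR in each line comparison. At an unadjusted p under 0.05 there were 0 for E0771-Res1 against E0771, 1 for E0771-Res2 against E0771 and 3 for E0771-Res2 against E0771-Res1, and DESeq2 called 0. The share called over all genes was also low: in CD8 T cells 0.0524% for E0771-Res1 against E0771, 0% for E0771-Res2 against E0771 and 0.157% for E0771-Res2 against E0771-Res1; in other T cells 0%, 0.0548% and 0%; in NK cells 0%, 0% and 0.105%; and in dendritic cells 0%, 0.193% and 0.0215%. *Cxcr6* in CD8 T cells was 227 and 437 CPM in E0771, 588 and 346 in 2 E0771-Res1 mice, and 195 and 292 in 2 E0771-Res2 mice. The log2 fold change of E0771-Res2 against E0771-Res1 was -0.96 and missed the threshold (SE 0.34, edgeR adjusted p = 0.872). *Ccr7* in dendritic cells differed by 0.11 (SE 0.24, edgeR adjusted p = 0.966) between E0771-Res2 and E0771.

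Over all kept cells, without gates, *Cxcr6* was 24.9 and 25.1 CPM for E0771, 28.2, 25.4 and 24.9 for E0771-Res1 and 9.91, 12.3 and 16.2 for E0771-Res2. E0771-Res2 was lower than E0771 (log2 fold change -0.97, SE 0.18, edgeR adjusted p = 0.0108) and than E0771-Res1 (log2 fold change -1.05, SE 0.15, edgeR adjusted p = 0.00367). In such sums fewer cells of a type and less RNA per cell cannot be told apart. The CD8 T gate held 3.33% of kept cells for E0771 (2.48 to 4.19%), 1.81% for E0771-Res1 (1.49 to 2.03%) and 0.824% for E0771-Res2 (0.380 to 1.12%). This gate needs fixed numbers of UMIs, and E0771-Res2 cells were the shallowest. By mouse the gated CD8 T cells had median depths of 10326 and 12178 UMIs in E0771 and 10752, 9337 and 12634.5 in E0771-Res1. In E0771-Res2 these were 7671, 14022 and 13733. The part of depth in the shares was not tested. *Ccr2* over all kept cells was 431 and 427 CPM for E0771, 337, 437 and 396 for E0771-Res1 and 241, 316 and 213 for E0771-Res2 (against E0771 -0.75, SE 0.15, edgeR adjusted p = 0.0162, against E0771-Res1 -0.61, SE 0.14, edgeR adjusted p = 0.0271). *Ccr1* was 246 and 232, then 185, 222 and 180, then 156, 164 and 117 CPM (E0771-Res2 against E0771 -0.72, SE 0.14, edgeR adjusted p = 0.0131). Across all genes 0.0353% were called for E0771-Res1 against E0771, 4.37% for E0771-Res2 against E0771 and 4.2% for E0771-Res2 against E0771-Res1. Without E0771 replicate 1 or 3, which leaves 1 mouse in that line, the differences of E0771-Res2 from E0771 kept their size (*Cxcr6* -1.003 and -0.95, *Ccr1* -0.70 and -0.74, *Ccr2* -0.77 and -0.74) and missed the threshold. *Ccr2* against E0771 also missed it without E0771-Res2 replicate 1 (-0.72) or 3 (-0.64), and against E0771-Res1 without E0771 replicate 3 (-0.62), E0771-Res1 replicate 2 (-0.52) or 3 (-0.60), or E0771-Res2 replicate 1 (-0.59) or 3 (-0.50). *Cxcr6* against E0771-Res1 passed under each of the 15 alternatives that could change it.

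The ligands were described from a list of 16 genes, of which 12 passed the count filter in monocytes and in macrophages. *Ccl19*, *Ccl21a*, *Cx3cl1* and *Cxcl12*, which encode ligands of Ccr7, Cx3cr1 and Cxcr4 made largely by stromal cells, did not. In E0771-Res2 against E0771 monocytes 4 ligand genes rose and 2 fell, so 6 of 12 were called where the share over all genes was 4.18%, with a list median of 0.05 (0.02 over all genes tested). *Ccl3* (log2 fold change 0.99, edgeR adjusted p = 0.000746), *Ccl4* (0.81, edgeR adjusted p = 0.00182) and *Ccl5* (0.76, edgeR adjusted p = 0.0408), which encode inflammatory chemokines, and *Ccl8* (1.50, edgeR adjusted p = 0.00495) were higher. *Cxcl9*, a ligand of Cxcr3 (-0.70, edgeR adjusted p = 0.0138), and *Ccl12*, a ligand of Ccr2 (-0.65, edgeR adjusted p = 0.00297), were lower. *Ccl2* differed by 0.31 (edgeR adjusted p = 0.319). In macrophages *Cxcl9* was the ligand gene called against E0771, at -1.45 (SE 0.28, edgeR adjusted p = 0.0128), while none of the 12 was called higher. The line effect itself differed between the classes for *Ccl3* (macrophage minus monocyte -0.86, edgeR adjusted p = 0.0343), *Ccl4* (-0.79, edgeR adjusted p = 0.0428) and *Ccl8* (-1.51, edgeR adjusted p = 0.00153). Against E0771-Res1, monocytes had lower *Cxcl9* (-0.72) and *Ccl12* (-0.82), and macrophages lower *Ccl12* (-1.03, edgeR adjusted p = 0.0166).

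Of 17 other chemokine receptor genes, 4 were tested in monocytes and 3 in macrophages. *Ccrl2*, a receptor that presents chemerin and does not signal by itself, was higher in E0771-Res2 than in E0771 monocytes (log2 fold change 0.55, SE 0.11, edgeR adjusted p = 0.0126). Of 16 signalling genes, all tested in both classes, *Rgs1*, which encodes a protein that shortens Gi signals, was higher in E0771-Res2 than in E0771 monocytes (1.30, SE 0.18, edgeR adjusted p = 0.00117) and macrophages (0.53), and also higher than in E0771-Res1 (0.88 and 0.55). Its rise over E0771 was larger in monocytes (macrophage minus monocyte -0.78, edgeR adjusted p = 0.0428). The remaining 15 signalling genes were not called, with list medians of 0.05 in monocytes and -0.09 in macrophages against E0771. The calls were thus 1 of 4 other receptors in monocytes against E0771 and, in each class, 1 of 16 signalling genes. Over all genes the called share was 4.18% in monocytes and 2.25% in macrophages against E0771, and 2.57% and 3.79% against E0771-Res1. A count of 1 says nothing particular of these lists. Between E0771-Res1 and E0771, 0 of 63 tests of the 3 lists in monocytes and macrophages were called by edgeR, and 12 had an unadjusted p under 0.05, where the share called over all genes was 0.0108% and 0.156%. In the lymphocyte and dendritic cell classes 0 of 101 were called by edgeR in each line comparison, with 9 to 12 at an unadjusted p under 0.05, where the share over all genes was at most 0.193%. Counts of 0 at such shares say nothing particular of the lists. DESeq2 was not run on the lists.

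The genes with the most similar levels over the 46 sums of mouse and class followed the class patterns. The sums of a mouse share a library, and the coefficients are a description with no test. For *Ccr1* they were *Csf3r* (Pearson r = 0.896), *Ccl2* (0.888) and *Themis2* (0.884), and for *Ccr2* *Tiparp* (0.806), *Plcg2* (0.775) and *Ltb4r1* (0.774). *Ccr7* was closest to *Uap1* (0.903), *Tuba1a* (0.900) and *Tbc1d4* (0.899), and *Cx3cr1* to *Nrp1* (0.787), *Bcl2l1* (0.700) and *Acp5* (0.691). *Cxcr3* was closest to *Leprotl1* (0.871), *Cd2* (0.868) and *Cd28* (0.863), *Cxcr4* to *Cyp4v3* (0.763), *Itgam* (0.758) and *Snx18* (0.755), and *Cxcr6* to *Trbc2* (0.937), *Tox* (0.930) and *Gstp3* (0.897). At least 1 of the 7 receptors had a UMI in 83.9% of thinned monocytes, 71.0% of macrophages, 77.1% of CD8 T cells, 78.7% of other T cells, 74.6% of NK cells and 84.1% of dendritic cells.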

How the data were processed

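Droplet-based 3′ single-cell RNA-seq was done by the authors on pooled, tagged CD45+ cells, and the deposited matrices hold 1 raw table of UMI counts by gene and barcode per mouse, made with Cell Ranger 6.1.2 (file header) on build mm10 (submitters' processing notes). The strand setting and any doublet removal are not given in the sources used here, and no doublet caller was run. A further E0771 mouse of the study was not analysed here.

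Cells with 500 to 6000 genes and under 10% mitochondrial UMIs were kept. Gates required at least 4 UMIs of *Cd3d*, *Cd3e* and *Cd3g* for T cells, with at least 3 of *Cd8a* and *Cd8b1* for CD8 T cells and 0 for other T cells; at least 4 of *Ncr1*, *Klrb1c* and *Klre1* and 0 Cd3 UMIs for NK cells; at least 4 of *Flt3*, *Zbtb46*, *Cd209a*, *Clec9a*, *Xcr1*, *Fscn1*, *Cacnb3* and *Ccl22* for dendritic cells; *Ly6c2* of at least 8 per 10000 UMIs for monocytes; and *C1qa* of at least 16 per 10000 for macrophages (under 4 in other gates). Monocytes and macrophages had under 4 UMIs of each of the T, NK and dendritic gene sets. T and NK cells had under 4 of the dendritic set. Dendritic cells had under 4 of the T and NK sets and *Ly6c2* under 8 per 10000. No cell was thus in more than 1 gate. The T and NK gates set no limit on *Ly6c2*, and the T gate set none on the NK genes. Lymphocytes with high *Ly6c2* were therefore kept. Thresholds were set on the gate genes. Mitochondrial, Rpl, Rps and Gm genes (8636 of 32285) and the 9 tag features were left out of sums.

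Class sums of a mouse (10 cells or more) entered edgeR 4.0.16 (glmQLFit, glmQLFTest, TMM, filterByExpr) in R 4.3.3, with Benjamini-Hochberg adjustment over all genes and a threshold of 0.05; DESeq2 1.42.0 was an alternative. Mice of a line differed by more than sampling noise (chi-square per degree of freedom 2.66 to 12.4), so each was counted as 1 sample. Paired values were tested by two-sided exact sign-flip permutation over mice, within the dendritic and other T gates on sums of 5 or more cells. The tests were checked on simulated counts. P-values adjusted over all 10832 genes replaced those planned over the 7 receptors for the C1q bins. That adjustment, the tests within the dendritic and other T gates, and the alternative without lymphocytes of at least 2 *Csf1r* UMIs were added after the data were seen. Intervals were not printed for sums; 3 UMIs of a class set the level that a count of 0 allows, and SDs cover the spread between mice.

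The 7 receptors and the gene lists were chosen with earlier results of these data known. Named genes were the 7 receptors, the 3 genes with the highest Pearson r to each over sums of mouse and class, and members of the ligand, other receptor and signalling lists that were called between lines; *Ccl2* was named in addition after its values were seen.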

Additional observations from a re-analysis of the deposited data

How the results depend on the processing

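The count of 28 receptor tests called between lines was small and moved with the settings. For E0771-Res1 against E0771 the 0 calls became 2 with no filter on low counts (*Ccr1* in monocytes, -0.42, and *Cx3cr1* in macrophages, 0.74), 1 without the highest 5% of cells by UMIs, and 0 to 1 when single mice were left out. For E0771-Res2 against E0771 the 3 calls ranged from 0 (without E0771 replicate 1) to 4 when single mice were left out. For E0771-Res2 against E0771-Res1 the 2 calls became 4 with no filter, 1 with doubled gate thresholds, and 1 to 4 when single mice were left out. With the replicate block this count was 4, *Ccr1* and *Cx3cr1* in macrophages being added; same-numbered mice deviated together by a correlation of only -0.09 to 0.13, so the numbers do not pair the mice. Between classes the 19 calls ranged from 17 to 20 when single mice were left out, and the 4 calls between C1q bins became 3 on *C1qb* and *C1qc*. Among the single values 0 reversed. Calls were lost more often when single mice were left out than under the other settings, where 4 were lost. Of 7 shares of cells with a UMI, each in the class where it was highest, 5 moved by at least 1 SD over mice without thinning. The tested sums held 15 to 47 CD8 T cells and 10 to 37 NK cells per mouse, which limits the precision of those classes, and E0771 had 2 mice. At 4000 UMIs, 126 of 1230 E0771, 285 of 2296 E0771-Res1 and 622 of 3266 E0771-Res2 cells were too shallow to be thinned. The causes of these changes were not tested.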
